A study of Homo sapiens with 4 samples.

Results

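The genes described here encode centromere and kinetochore proteins, the structures by which chromosomes bind the spindle. They were taken as a list of 32 gene symbols, and a symbol was counted as measured where a row of the value table carried it and no other symbol. By this rule 29 of the 32 genes were measured, among 21469 genes in all. The row of CENPP also carried the symbol LOC100128361, that of PMF1 those of PMF1-BGLAP and BGLAP, and that of SPAG5 the symbol SGK494, so no values are given for these 3 genes. Of the measured genes, 14 of 15 listed were constitutive centromere proteins, 13 of 15 listed were outer kinetochore proteins, and 2 of 2 load the centromeric histone.

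RNA came from U2OS, a human osteosarcoma cell line, and was hybridised to 1 Affymetrix Human Transcriptome Array 2.0 per sample. The tested cells received nocodazole, a drug that depolymerises microtubules, for 48 h (2 arrays, replicates 2 and 3), and the control cells received DMSO, the solvent, for 48 h (2 arrays, replicates 2 and 3). Cells of both groups had first been starved of serum for 24 h, held in thymidine for 24 h and released into drug-free medium for 3 h. PLKO.1 stands in the titles of all 4 samples, with no word on what it is. The series text calls the replicates biological, and its title concerns cells after slippage, that is, cells that left a mitotic arrest without dividing.

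A centromere is marked by nucleosomes that hold the histone H3 variant CENP-A in place of H3. On them sits the constitutive centromere-associated network, present through the cell cycle, and in mitosis this network and CENP-C recruit the outer kinetochore, whose NDC80 complex grips microtubules. Kinetochores without microtubules, as in nocodazole, feed the checkpoint that holds cells in mitosis. Many genes of mitosis are transcribed mainly in G2 and M phase and are shut off in resting cells by repressor complexes that bind short promoter motifs.

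The promoters of several members are shown first. Short motifs known from genes of the cell cycle recur in all of those shown but that of CENPT. Sequences are from RefSeq on GRCh38.p14, written 5′ to 3′ along the gene. Capitals mark the cell-cycle homology region (CHR; the letters TTTGAA, or TTCGAA, or CTTGAA, or else TTTAAA), a binding motif of the MuvB complexes that repress and activate G2/M genes, and the CCAAT box (CCAAT), the motif of the factor NF-Y, each on either strand. NDC80 and CENPF are the genes that fell below, OIP5 and CENPA differed most among the histone CENP-A and its loaders, and CENPX and CENPT are 2 of the genes with small differences. Other promoters are not shown. That of CENPW (log2 fold change -0.12, against -0.21 for CENPX) held 2 CHR matches and 2 CCAAT boxes. That of CENPI (-0.79) held neither motif. The promoters and stretches shown are a selection. Of the promoter windows of all protein-coding genes, 27.7% held a CHR match and 34.7% a CCAAT box, against 51.5% and 57.6% of member windows. Members with and without a CHR match had the same median log2 fold change, -0.41.
NDC80, chr18:2571497-2571566, plus strand, bases -60 to 10 around the transcription start: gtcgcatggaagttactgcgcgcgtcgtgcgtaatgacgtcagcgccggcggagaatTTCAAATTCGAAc
CENPF, chr1:214603075-214603194, plus strand, bases -120 to -1: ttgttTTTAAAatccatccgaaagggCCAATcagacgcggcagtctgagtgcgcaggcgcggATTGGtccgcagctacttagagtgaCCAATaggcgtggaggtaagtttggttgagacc
OIP5, chr15:41332582-41332651, minus strand, bases -60 to 10: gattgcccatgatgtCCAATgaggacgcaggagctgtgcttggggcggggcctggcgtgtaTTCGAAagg
CENPA, chr2:26785956-26786055, plus strand, bases -100 to -1: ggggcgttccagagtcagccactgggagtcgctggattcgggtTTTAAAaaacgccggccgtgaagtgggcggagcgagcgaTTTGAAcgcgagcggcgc
CENPX, chr17:82022879-82022998, minus strand, bases -120 to -1: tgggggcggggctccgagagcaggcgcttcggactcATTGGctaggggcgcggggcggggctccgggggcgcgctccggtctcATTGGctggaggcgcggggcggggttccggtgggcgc
CENPT, chr16:67847694-67847793, minus strand, bases -100 to -1: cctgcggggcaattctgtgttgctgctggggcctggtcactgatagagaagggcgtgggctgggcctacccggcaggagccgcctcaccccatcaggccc

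The question of the comparison was how expression differed between nocodazole and DMSO cells. After nocodazole, NDC80, which encodes the microtubule-binding subunit of the NDC80 complex, fell to 55.7% of its DMSO level, and CENPF, a large protein of the outermost kinetochore layer, fell to 52.0%. These were 2 of the 29 measured members, against 0.0978% of all genes called lower by the same rule. By limma's adjusted p 0 members were called higher on both scales, against 0.149% of all genes, and 0 of 29 had an unadjusted p under 0.05 in that direction, against 3.9% of all genes. The other 27 members did not pass, but 28 of 29 had values under 0, against 52.4% of all genes, and their median log2 fold change was -0.41, against -0.01 for all genes. An unadjusted limma p under 0.05 with a value under 0 was found in 16 of 29, against 5.44% of all genes; without nocodazole replicate 2 this was 9 of 29, against 2.97%. Outer kinetochore members had a median of -0.54 and constitutive centromere members one of -0.36.

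Values are log2 expression, and a fold change is nocodazole minus DMSO. The arrays differed as a whole: the median over all genes was 5.87 and 5.68 on the nocodazole arrays and 6.38 and 6.06 on the DMSO arrays as deposited, and the median change was -0.45. The arrays were therefore quantile-normalized, and all values below are on that scale unless the deposited scale is named. Limma was fitted to all genes with p-values adjusted over all of them (Benjamini-Hochberg, threshold 0.05), and "fell" is written only where a gene passed on both scales. Limma called 60 genes (0.279%) on the quantile-normalized scale, 39 higher (0.182%) and 21 lower (0.0978%). As deposited it called 51 higher (0.238%) and 5341 lower (24.9%). All 21 genes called lower after quantile normalization were among the latter, so for lower values the deposited scale added no further check. After median centring it called 19 higher (0.0885%) and 1 lower (0.00466%), with 0 members among them after centring. All 29 members lay above the median of the background control rows on all 4 arrays. Of all 21469 genes, 4695 lay below it on at least 1 array, so most genes shared this trait. Of markers of the labelled line, 7 of 8 measured mesenchymal and osteoblast genes lay above background on every array and IBSP, bone sialoprotein, lay below it on all 4. Of 10 markers of other cell types, 8 also lay above background on every array (CD3E, CD14, EPCAM, KRT8, KRT18, CDH1, CDH5 and VWF), so that lying above it does not tell cell types apart here. PECAM1, of endothelium, was below it on 3 arrays, and PTPRC, the leukocyte marker CD45, was below background on all 4 arrays, and the deposited level of the epithelial keratin genes KRT8 and KRT18 was 8.95 to 10.8.

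**Figure D1:**
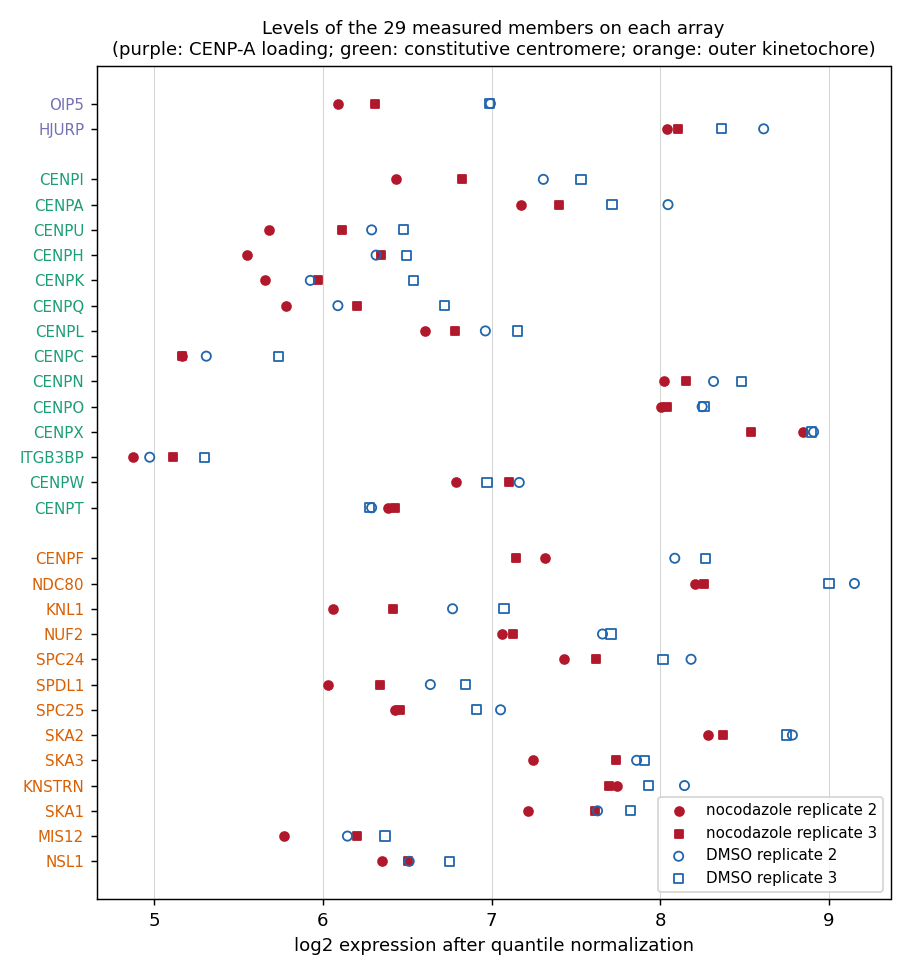
Quantile-normalized log2 expression (horizontal) of the 29 measured members on each array, with nocodazole as filled red symbols and DMSO as open blue symbols, ordered within each class by fold change. Both nocodazole arrays lie below both DMSO arrays in 22 members, against 20.1% of all genes, and above them in CENPT, against 16.4%. Positions should be compared within a gene and not between genes.

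The NDC80 complex, the rod that joins the inner kinetochore to microtubules, had 4 measured subunits, all lower with nocodazole on every array. NDC80 (row TC18000009.hg.1, chromosome 18) had 8.21 and 8.26 on the nocodazole arrays and 9.15 and 9.00 on the DMSO arrays. Its change on the log2 scale was -0.84 ± 0.11 (SE, n = 2 per group; limma adjusted p = 0.0427), and as deposited it was -1.33 (limma adjusted p = 4.886e-07). The groups lay far apart compared with the gap between replicates. NUF2, which pairs with NDC80 in the microtubule-binding head, had 7.06 and 7.13 with nocodazole and 7.66 and 7.71 with DMSO, a log2 difference of -0.59 ± 0.12 (limma adjusted p = 0.128). SPC24, of the pair that anchors the complex, had 7.43 and 7.62 with nocodazole and 8.18 and 8.02 with DMSO. Its partner SPC25 had 6.43 and 6.46 with nocodazole and 7.05 and 6.91 with DMSO. In all 4 subunits the groups did not overlap, which was so for 20.1% of all genes in this direction. SPC24 and SPC25 had log2 fold changes of -0.57 and -0.54 and did not pass (limma adjusted p = 0.167 and 0.218).

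CENPF (row TC01001791.hg.1, chromosome 1) had the lowest fold change of any member. It had 7.32 and 7.15 on the nocodazole arrays and 8.09 and 8.27 on the DMSO arrays. The log2 fold change was -0.94 ± 0.13 (limma adjusted p = 0.0461), and as deposited it was -1.43 (limma adjusted p = 4.341e-07); 53 of 21469 genes had a lower one on the quantile-normalized scale. SPDL1, or Spindly, which brings dynein to kinetochores, had 6.03 and 6.34 with nocodazole and 6.64 and 6.84 with DMSO, a log2 change of -0.56 ± 0.16 that did not pass (limma adjusted p = 0.298). KNSTRN, or kinastrin, a partner of the spindle protein astrin, had 7.74 and 7.70 with nocodazole and 8.14 and 7.93 with DMSO, a difference of -0.32 ± 0.13 on the log2 scale (limma adjusted p = 0.484). Groups of all 3 genes were apart, as was so for 20.1% of all genes in this direction, with the smallest gap in KNSTRN.

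The calls of NDC80 and CENPF depended on the fit. With median centring in place of quantile normalization their log2 fold changes were -0.91 and -1.01 and the limma adjusted p-values 0.796 and 0.474, and without a trend of variance with level the p-values were 0.190 and 0.182. Leaving out any 1 array also ended both calls: for NDC80 the limma adjusted p was 0.814 when nocodazole replicate 2 was dropped, 0.753 when nocodazole replicate 3 was, 0.656 when DMSO replicate 2 was and 0.354 when DMSO replicate 3 was, with log2 fold changes of -0.83, -0.86, -0.78 and -0.91. For CENPF the p-values in that order were 0.794, 0.753, 0.656 and 0.433, with log2 fold changes of -1.06, -0.85, -1.05 and -0.82. The lone array left in a group was assumed to vary like the arrays of the other group.

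KNL1, the scaffold on which checkpoint proteins assemble, and the MIS12 complex, which links KNL1 and NDC80 to the centromere, complete the core outer kinetochore. KNL1 had 6.06 and 6.42 with nocodazole and 6.77 and 7.07 with DMSO, a log2 difference of -0.68 ± 0.18 (limma adjusted p = 0.235). Both nocodazole arrays lay under both DMSO arrays, as was so for 20.1% of all genes. MIS12 had 5.77 and 6.20 with nocodazole and 6.14 and 6.37 with DMSO, and its groups overlapped. NSL1 had 6.35 and 6.50 with nocodazole and 6.51 and 6.75 with DMSO, and its groups met almost edge to edge. The log2 fold changes of MIS12 and NSL1, -0.27 ± 0.19 and -0.21 ± 0.15, were the nearest to 0 of the outer kinetochore (limma adjusted p = 0.779 and 0.807).

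The SKA complex, which keeps kinetochores on the ends of shrinking microtubules, had 3 measured subunits and none passed. SKA2 had 8.28 and 8.37 with nocodazole and 8.78 and 8.75 with DMSO, a log2 change of -0.44 ± 0.11 (limma adjusted p = 0.218). SKA3 had 7.25 and 7.74 with nocodazole and 7.86 and 7.91 with DMSO, and SKA1 had 7.22 and 7.61 with nocodazole and 7.63 and 7.83 with DMSO. In both genes nocodazole replicate 3 came close to the DMSO arrays while replicate 2 lay well below. Their log2 fold changes were -0.39 ± 0.17 and -0.31 ± 0.16 (limma adjusted p = 0.537 and 0.635).

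Among the genes of CENP-A deposition, OIP5 had the lowest fold change. OIP5, a subunit of the Mis18 complex that licenses centromeres for new CENP-A, had 6.09 and 6.31 with nocodazole and 6.99 and 6.99 with DMSO. Its log2 fold change, -0.79 ± 0.14, missed the threshold (adjusted p by limma, 0.0892). HJURP, the chaperone that delivers CENP-A, had 8.04 and 8.11 with nocodazole and 8.61 and 8.36 with DMSO, a difference of -0.41 ± 0.13 on the log2 scale (limma adjusted p = 0.321). CENPA itself had 7.17 and 7.40 with nocodazole and 8.05 and 7.71 with DMSO, a log2 difference of -0.59 ± 0.16 (limma adjusted p = 0.235). For all 3 genes both nocodazole arrays were below both DMSO arrays, as was so for 20.1% of all genes. The DMSO replicates of CENPA were the farther apart of its pairs.

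Of the 14 constitutive centromere members, CENPA included, 0 passed limma's test. An unadjusted limma p under 0.05 with a value under 0 was found in 5, against 5.44% of all genes. In 8 the groups did not overlap, with nocodazole lower, against 20.1% of all genes. The outer kinetochore counts were 9 and 12 of 13. CENPI, of the CENP-H/I/K group that binds CENP-C, had the lowest fold change of the network. Its levels were 6.43 and 6.82 with nocodazole and 7.31 and 7.53 with DMSO. Its change on the log2 scale was -0.79 ± 0.17 (limma adjusted p = 0.138). CENPH had 5.55 and 6.35 with nocodazole and 6.32 and 6.49 with DMSO, and CENPK had 5.66 and 5.97 with nocodazole and 5.92 and 6.54 with DMSO. In both the groups overlapped, and their log2 fold changes were -0.46 ± 0.25 and -0.42 ± 0.23 (limma adjusted p = 0.666 and 0.660).

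CENPC, the protein that bridges CENP-A nucleosomes and the MIS12 complex, had 5.16 and 5.17 with nocodazole and 5.31 and 5.73 with DMSO. The log2 fold change was -0.36 ± 0.19 (limma adjusted p = 0.658), and the nocodazole replicates nearly coincided while the DMSO replicates did not. CENPN, which recognises the CENP-A nucleosome, had 8.02 and 8.15 with nocodazole and 8.32 and 8.48 with DMSO, and CENPL, its partner, had 6.61 and 6.78 with nocodazole and 6.96 and 7.15 with DMSO. Groups of both were apart by a narrow margin, against 20.1% of all genes with groups apart in this direction. Their log2 fold changes were -0.31 ± 0.12 and -0.36 ± 0.14 (limma adjusted p = 0.464 and 0.471).

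The CENP-O group, a peripheral module of the network in which CENPU provides a docking site for the kinase PLK1, had 4 measured genes. CENPU had 5.68 and 6.11 with nocodazole and 6.29 and 6.48 with DMSO, and CENPO had 8.00 and 8.04 with nocodazole and 8.25 and 8.26 with DMSO. Groups of these 2 genes were apart, as was so for 20.1% of all genes in this direction. The replicates of CENPO nearly coincided, and its change on the log2 scale was -0.23 ± 0.11 (limma adjusted p = 0.590) against -0.49 ± 0.19 for CENPU (limma adjusted p = 0.452). CENPQ had 5.78 and 6.20 with nocodazole and 6.09 and 6.72 with DMSO, and ITGB3BP, which encodes CENP-R, had 4.87 and 5.11 with nocodazole and 4.97 and 5.30 with DMSO. Both overlapped, with log2 fold changes of -0.41 ± 0.24 and -0.15 ± 0.20 (limma adjusted p = 0.701 and 0.942). The value of ITGB3BP was 0.02 without DMSO replicate 3.

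The histone-fold proteins CENP-T, CENP-W and CENP-X, which form the DNA-binding arm that recruits NDC80 directly, had a median log2 fold change of -0.12. CENPT had 6.38 and 6.43 with nocodazole and 6.29 and 6.28 with DMSO, and it was the 1 member whose nocodazole arrays lay above its DMSO arrays, as was so for 16.4% of all genes. Its change on the log2 scale was 0.12 ± 0.14 (limma adjusted p = 0.919), and as deposited it was -0.31. CENPW had 6.79 and 7.10 with nocodazole and 7.16 and 6.97 with DMSO, overlapping groups with a log2 change of -0.12 ± 0.16 (limma adjusted p = 0.937), which was 0.03 without nocodazole replicate 2. CENPX had 8.84 and 8.54 with nocodazole and 8.91 and 8.90 with DMSO, a difference of -0.21 ± 0.13 on the log2 scale (limma adjusted p = 0.732). The fit thus set no difference apart from 0 for these genes. Whether CENPT differed from NDC80 in its response was not tested.

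**Figure D2:**
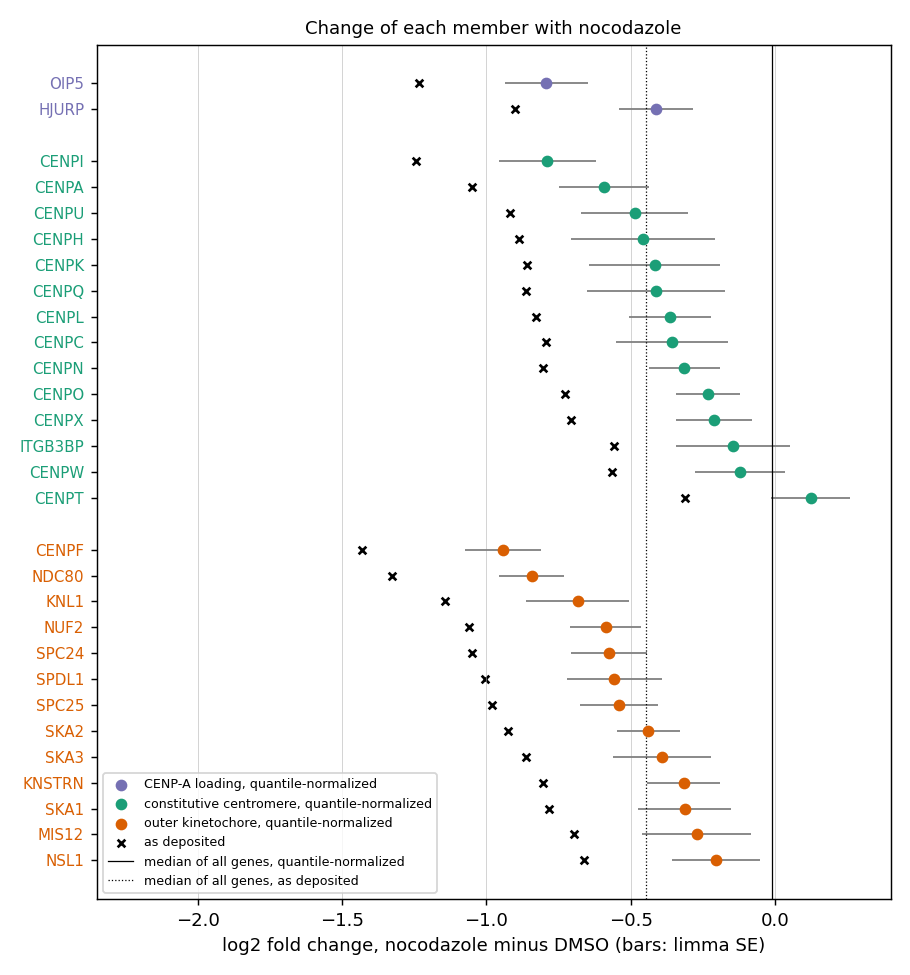
Log2 fold change, nocodazole minus DMSO (horizontal), of each measured member after quantile normalization (coloured points, bars are limma SE) and as deposited (crosses). The solid line is the median of all genes after quantile normalization, -0.01, and the dotted line that of the deposited values, -0.45. Quantile-normalized values run from -0.94 for CENPF to 0.12 for CENPT.

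Set side by side, the medians of the classes were -0.54 for 13 outer kinetochore members, with a range of -0.94 to -0.21, and -0.36 for 14 constitutive centromere members, with a range of -0.79 to 0.12. The ranges overlap over most of their length. Leaving out the MIS12 complex gave -0.56 for the outer kinetochore, and leaving out CENPA gave -0.36 for the constitutive centromere. Without DMSO replicate 3 the constitutive median was -0.22, with -0.45 for the outer kinetochore. Genes of a class share arrays and are not replicates, so the difference between the classes has no test here. Constitutive members were also measured less precisely, with a median SE of 0.16 against 0.14 for the outer kinetochore.

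Array by array, the median of the outer kinetochore members was 7.22 and 7.15 on the nocodazole arrays and 7.66 and 7.83 on the DMSO arrays. The constitutive median was 6.41 and 6.60 on the nocodazole arrays and 6.64 and 6.85 on the DMSO arrays, so that nocodazole replicate 3 lay just under DMSO replicate 2. The medians of the groups did not overlap in either class, and the gap was wider for the outer kinetochore. The replicates differed too: nocodazole replicate 2 was below nocodazole replicate 3 in 26 of 29 members, against 52.1% of all genes, and DMSO replicate 2 was below DMSO replicate 3 in 18 of 29, against 49.9%.

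**Figure D3:**
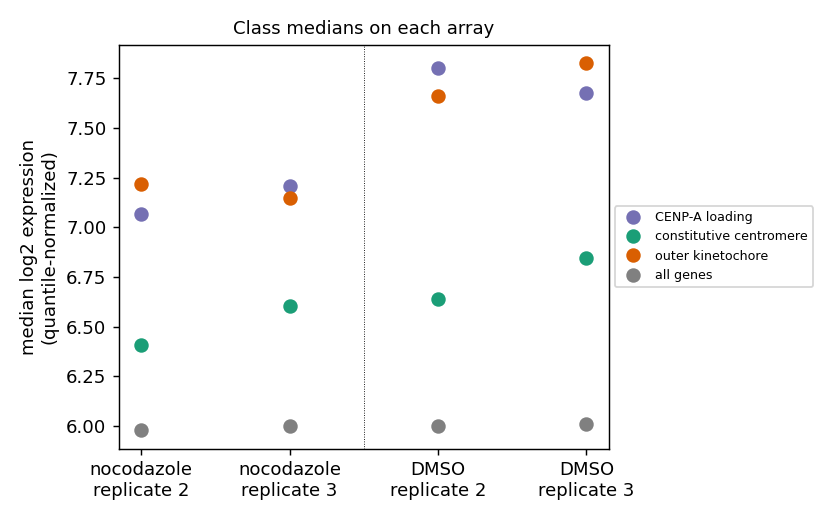
Median quantile-normalized log2 expression (vertical) of the members of each class and of all genes on each of the 4 arrays. Outer kinetochore and CENP-A loading medians are lower on both nocodazole arrays, by more than the replicates differ, while the constitutive medians of nocodazole replicate 3 and DMSO replicate 2 nearly meet, at 6.60 and 6.64. The vertical axis does not start at 0.

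On the deposited values limma called 26 of 29 members lower, against 24.9% of all genes, and all 29 had nocodazole arrays below the DMSO arrays, against 66.3% of all genes. The members not called there were CENPC, ITGB3BP and CENPT (limma adjusted p = 0.0645, 0.217 and 0.260). The deposited median of the members was -0.86, against -0.45 for all genes, so the distance between members and all genes was of similar size on both scales.

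**Figure D4:**
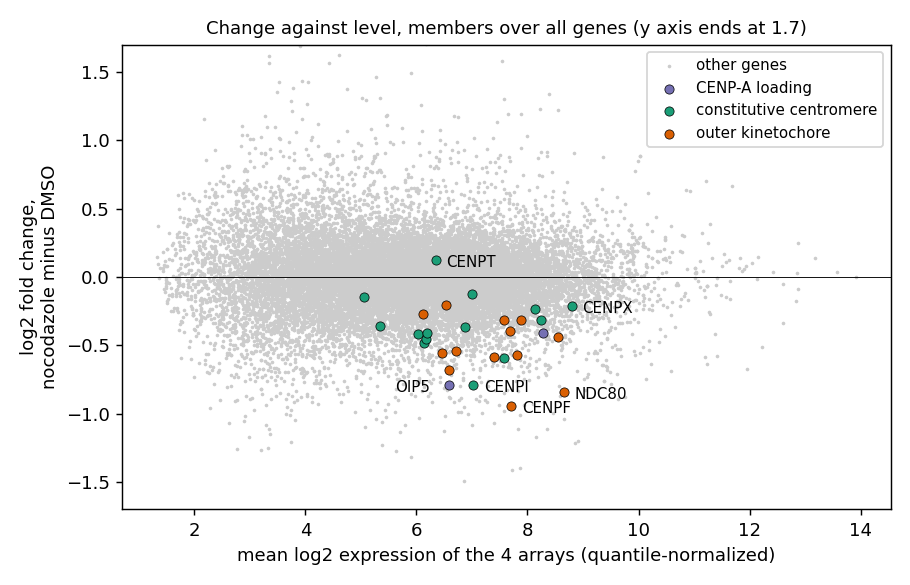
Log2 fold change, nocodazole minus DMSO (vertical), against the mean quantile-normalized log2 expression of the 4 arrays (horizontal), with members coloured by class over all other genes in grey; genes beyond the ends of the vertical axis are not drawn. All members but CENPT lie below 0, from CENPF at -0.94 and NDC80 at -0.84 to CENPW, within the cloud, at -0.12. CENPT lies above 0 at 0.12.

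Other genes of the centromere and kinetochore, among them those of the spindle checkpoint and the chromosomal passenger complex, had a similar range of fold changes, -0.96 to 0.15. Of 28 listed 22 were measured. Limma called 0 lower and 0 higher on both scales, against 0.0978% and 0.149% of all genes. In 14 an unadjusted limma p under 0.05 stood with a value under 0, against 5.44% of all genes. The median log2 fold change was -0.41, against -0.01 for all genes. CENPE, the kinesin that slides chromosomes to the spindle equator, had 6.33 and 6.44 with nocodazole and 7.11 and 7.56 with DMSO, a log2 difference of -0.96 ± 0.17 (limma adjusted p = 0.0892). KIF18A, a kinesin that shortens microtubules at kinetochores, had 7.01 and 7.41 with nocodazole and 8.08 and 8.00 with DMSO, a log2 change of -0.83 ± 0.16 (limma adjusted p = 0.0975). In both the groups did not overlap, as was so for 20.1% of all genes in this direction. Their changes were close in size to those of CENPF and NDC80, and neither passed.

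Other lists of the dividing cell lay in the same direction. Of 14 measured G2/M genes 14 had values under 0, against 52.4% of all genes. Their median was -0.61, against -0.01 for all genes, with a range of -1.11 to -0.04. Of these 1 fell, against 0.0978% of all genes, the proliferation antigen gene MKI67 (-1.11 ± 0.14, limma adjusted p = 0.0352). Among 10 measured genes of replication licensing all 10 had values under 0, against the same 52.4%, with a median of -0.43. Here too 1 fell, against 0.0978% of all genes, the helicase subunit gene MCM6 (-0.92 ± 0.13, limma adjusted p = 0.0492). Both were named after their values were seen. Neither call held in every fit: after median centring the limma adjusted p was 0.488 for MKI67 and 0.370 for MCM6, and without a variance trend, or with any 1 array left out, limma called 0 genes lower. The part that the share of dividing cells had in the result was not tested. In RNA from whole cultures, fewer cells that express a gene and less of its RNA per cell cannot be told apart.

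Promoter windows in RefSeq, 250 bases before to 50 after a transcription start, were found for 29 of the 32 genes, in 33 windows. CENPH, CENPL and KNL1 had none. A CHR motif was in 17 of 33 windows, 51.5%, against 27.7% of the windows of all protein-coding genes. Within 30 bases of the start, a narrower window chosen after the sites were seen, it was in 12 of 33, 36.4%, against 5.6%. A CCAAT box was in 19 windows, 57.6%, against 34.7%. An E2F-like motif (TTCCCGC or TTGGCGC, either strand), the motif of the E2F factors of S phase, was in 10, 30.3%, against 11.5%. Motif matches in the set were thus more frequent than among protein-coding windows at large, as a description without a test.

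Fold changes of members with and without each motif are given as a description, and their difference was not tested. In the 15 measured genes with a CHR motif the median log2 fold change was -0.41, and in the 11 without it was also -0.41. The 16 genes with a CCAAT box had a median of -0.43 and the 10 without one of -0.31; the 8 with an E2F-like motif had -0.48 and the 18 without one -0.40. Ranges overlapped in every pair. NDC80 had 2 CHR matches side by side at its start and no CCAAT box, and CENPF had 2 CHR matches and 4 CCAAT boxes, the last of them past the start. CENPX had 5 CCAAT boxes with a log2 fold change of -0.21, while CENPI had none of the motifs in its window with -0.79, and CENPT had none with 0.12.

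**Figure D5:**
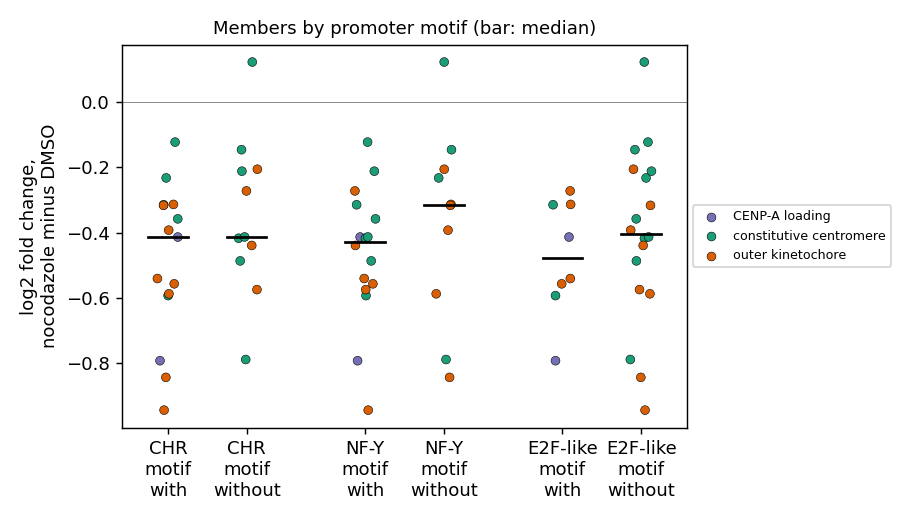
Log2 fold change, nocodazole minus DMSO (vertical), of the 26 measured members that have a promoter window, split by whether any window holds a CHR motif, a CCAAT box (the NF-Y motif) or an E2F-like motif; points are genes coloured by class and bars are medians. The medians with and without a CHR motif are both -0.41, and the points overlap in each pair.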

How the data were processed

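The deposited table holds log2 expression, with a column for each of the 4 arrays. Names listed in the submitters' processing notes are RMA, Partek 7.0 and the build hg19, without settings. Of 65535 rows, 1530 control rows were set aside, and 23 background control rows gave the background median of each array. Rows with exactly 1 symbol in the platform annotation (21771) were kept, with the row of the highest mean standing for a gene, which left 21469 genes. The 4 arrays were quantile-normalized over all non-control rows and tested with limma 3.58.1 in R 4.3.3 (lmFit, eBayes with a variance trend, two-sided, no block, Benjamini-Hochberg over all genes). The steps were tested on simulated data, where recovery was required only of changes larger than that of any member. That test therefore does not show that changes of the members' size are found. An exact permutation test of 2 arrays against 2 cannot give a p below 0.333. All members were named; other listed genes were named where called on both scales, with the 2 of largest absolute change. Members, lists and scale were chosen with earlier results of these data known. Motifs were matched as exact letters. Precision is limited by having 2 arrays per group.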

Additional observations from a re-analysis of the deposited data

How the results depend on the processing

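The count of genes called was 60, against 5392 on the deposited values, 20 after median centring, 11 without a variance trend and 114 without dim genes; with 1 array left out it ranged from 0 to 2. Members called lower were 2, against 26 on the deposited values, 0 after median centring, 0 without a variance trend and 0 in every fit that left out 1 array. NDC80 and CENPF were the members called in the 3 other scalings and filters run (gene rows only, no dim genes, mean of rows). The medians of all measured, constitutive and outer members were -0.86, -0.82 and -0.98 on the deposited values; with 1 array left out they ranged from -0.54 to -0.35, from -0.46 to -0.22 and from -0.61 to -0.42. Of the 22 other centromere and kinetochore genes measured, 18 were called lower on the deposited values, against 24.9% of all genes. The sign turned for CENPT on the deposited values (-0.31), for ITGB3BP without DMSO replicate 3 (range over left-out arrays -0.31 to 0.021) and for CENPW without nocodazole replicate 2 (-0.27 to 0.0349). Restricting the members to the 27 above the median level of all genes, chosen after seeing the data, gave a median of -0.42. The cause of these differences between fits was not tested.

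Both groups carry replicate numbers 2 and 3, which the labels do not tie to a shared culture or day. The differences between replicate 2 and replicate 3 correlated between the groups at 0.224 over genes. With the replicate number as a block limma called 230 of 21469 genes, 120 of them lower, among them 6 members (CENPF, CENPI, KNL1, NDC80, NUF2 and OIP5) and 3 of the other centromere and kinetochore genes.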
